A study of Homo sapiens with 12 samples.

Results

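The negative feedback genes of the ERK pathway were examined as a group of 10 genes, made up of the MAP kinase phosphatases DUSP4, DUSP5, DUSP6 and DUSP7, the Sprouty genes SPRY1, SPRY2 and SPRY4, and the Sprouty-related genes SPRED1, SPRED2 and SPRED3. They were taken by gene symbol from a count table of 58735 genes, in which each symbol occurred in 1 row. RNA-seq was performed in K562, a human erythroleukemia line whose growth is driven by BCR::ABL1, a constitutively active kinase made by a chromosome fusion. The 4 groups of 3 biological replicates were mock DMSO (vehicle, no hemin), mock nilotinib (0.1 µM of the ABL kinase inhibitor, no hemin), hemin DMSO (vehicle and then 50 µM hemin for 24 h) and hemin nilotinib (0.1 µM nilotinib and then 50 µM hemin for 24 h). All libraries came from this single line. By the study's methods, inhibitor or vehicle was given for 24 h ahead of hemin and cells were taken at 0 and 24 h, and the library names carry 0 for mock and 24 for hemin. Hemin therefore cannot be told apart from 24 h more in culture, nor, in the nilotinib groups, from longer exposure to nilotinib. Each comparison called hemin against mock covers both, and so does the interaction of nilotinib and hemin. The design asks how nilotinib, hemin and their combination moved these genes.

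ERK is the last kinase of the cascade from RAS through RAF and MEK, and in K562 cells this cascade is driven by BCR::ABL1 through adaptors such as GRB2 and GAB2. Active ERK switches on genes that restrain it. Phosphatases of the DUSP family remove the activating phosphates from ERK, with DUSP4 and DUSP5 in the nucleus and DUSP6 and DUSP7 in the cytoplasm. Sprouty proteins act upstream, between receptors and RAF, and SPRED proteins bring the RAS inhibitor neurofibromin (NF1) to the membrane. Because the genes are made in response to the pathway, their mRNA levels are widely used as a readout of its output.

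To give the sequence context of the members whose mRNA moved most or moved against the others, the 250 bases before the first listed RefSeq start of SPRY4 (the largest change), SPRED2 (the most abundant member) and SPRED3 (the member that rose) are shown, 5′ to 3′ on the strand of the gene, build GRCh38.p14. They lie at chr5:142324248-142324497 (minus strand), chr2:65432600-65432849 (minus strand) and chr19:38389541-38389790 (plus strand). Capitals mark matches to the motifs searched.
SPRY4: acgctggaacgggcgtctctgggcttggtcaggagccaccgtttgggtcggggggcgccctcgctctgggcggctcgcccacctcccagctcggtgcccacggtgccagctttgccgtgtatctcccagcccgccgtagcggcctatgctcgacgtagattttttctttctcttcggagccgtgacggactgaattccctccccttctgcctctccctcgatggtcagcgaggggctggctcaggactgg
SPRED2: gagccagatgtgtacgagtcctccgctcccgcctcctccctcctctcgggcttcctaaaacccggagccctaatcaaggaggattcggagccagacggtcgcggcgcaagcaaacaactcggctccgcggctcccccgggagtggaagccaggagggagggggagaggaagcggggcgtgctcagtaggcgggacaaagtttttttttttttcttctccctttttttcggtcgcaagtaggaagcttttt
SPRED3: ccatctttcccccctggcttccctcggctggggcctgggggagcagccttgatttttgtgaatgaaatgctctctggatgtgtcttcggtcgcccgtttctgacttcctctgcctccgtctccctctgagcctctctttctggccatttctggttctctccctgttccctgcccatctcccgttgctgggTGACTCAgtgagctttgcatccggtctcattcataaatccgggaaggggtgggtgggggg

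Both strands of these windows were searched for 4 motifs, namely CCGGAA (a core bound by ETS factors), TGANTCA (AP-1), TGACGTCA (cyclic AMP response element, which shares its ends with the AP-1 motif but cannot match at the same position) and the CArG box of serum response factor. The RefSeq promoter table held 8 of the 10 members, all but DUSP4 and DUSP5. Of the 8 first listed windows, 1 held CCGGAA (SPRY2, 142 bases before the start) and 1 held TGANTCA (SPRED3, 60 bases before the start), while none held TGACGTCA or a CArG box. Over 35116 promoter windows of the same length, 14.5% held CCGGAA, 6.57% TGANTCA, 1.65% TGACGTCA and 1.16% a CArG box. The start used for SPRY4 lay 65 bases from the nearest GENCODE start of that gene, and those of SPRED2 and SPRED3 lay 38 and 179 bases away. The SPRY4 and SPRED3 windows lie inside the annotated spans of their genes, so these starts are internal and not the outermost ones. The bases after the SPRED3 start, and those after the SPRY2 start, were not found as 1 run in a GENCODE transcript of the gene, unlike those of SPRY4 and SPRED2. For the second listed SPRED3 start they were found. It lay 276 bases from a GENCODE start, and its window held none of the 4 motifs. These matches describe the letters in the windows alone.

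Between 33457078 and 50506990 reads were counted to genes per library, and no pair of replicates was identical within sampling noise. All 8 erythroid markers checked (among them GATA1, TAL1 and KLF1) were at 1 CPM or more in each group. Their summed level was 923 to 1362 CPM in mock DMSO, 3304 to 4709 in mock nilotinib, 673 to 751 in hemin DMSO and 3691 to 4349 in hemin nilotinib. The sum of 5 granulocyte and monocyte markers went the other way under nilotinib, from 87.2 to 96.8 CPM in mock DMSO to 14.7 to 18.1 in mock nilotinib, and from 66.1 to 83.2 in hemin DMSO to 8.28 to 11.7 in hemin nilotinib, with MPO at 0 in all hemin nilotinib libraries. Sums of 5 lymphoid markers (8.80 to 19.1 CPM in mock DMSO and 1.85 to 2.23 in mock nilotinib, 17.5 to 25.8 in hemin DMSO and 1.58 to 4.44 in hemin nilotinib) and of 4 megakaryocyte markers (37.8 to 64.2 and 15.4 to 25.0 CPM, 31.4 to 69.9 and 9.37 to 15.8 CPM) were also lower with nilotinib. Those of 4 fibroblast and epithelial markers were 71.4 to 79.3 and 50.5 to 67.2 CPM without hemin, and 68.5 to 96.1 and 44.1 to 50.3 CPM with it. Outside the erythroid list these sums rest on few genes. At 1 CPM or more in a group were 1 to 3 of the granulocyte and monocyte markers and 1 or 2 of the lymphoid markers. The same held for 1 or 2 of the megakaryocyte and 2 or 3 of the fibroblast and epithelial markers. The marker sums thus moved with nilotinib, and their part in the results on the 10 genes was not tested. In such bulk libraries, fewer cells that express a gene and less RNA per cell cannot be told apart.

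The 10 genes together held 144 to 151 CPM (a library's counts rescaled to a common total with TMM factors) in the mock DMSO libraries and 52.8 to 59.0 CPM in mock nilotinib. After hemin the sum was 171 to 212 CPM without nilotinib and 52.0 to 57.5 CPM with it. The libraries given nilotinib thus ended in the same range of summed level whether or not hemin was added, well under those without it. SPRED2 alone held a mean of 25.0 CPM in mock nilotinib and 27.2 CPM in hemin nilotinib, so this sum says little of the members with few reads. The sum of the 3 Sprouty genes, most of it SPRY4 in the DMSO groups, went from 24.5 to 33.8 CPM in mock DMSO to 2.82 to 3.43 CPM in mock nilotinib, and from 36.6 to 56.9 CPM to 2.76 to 3.29 CPM under hemin.

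**Figure D1:**
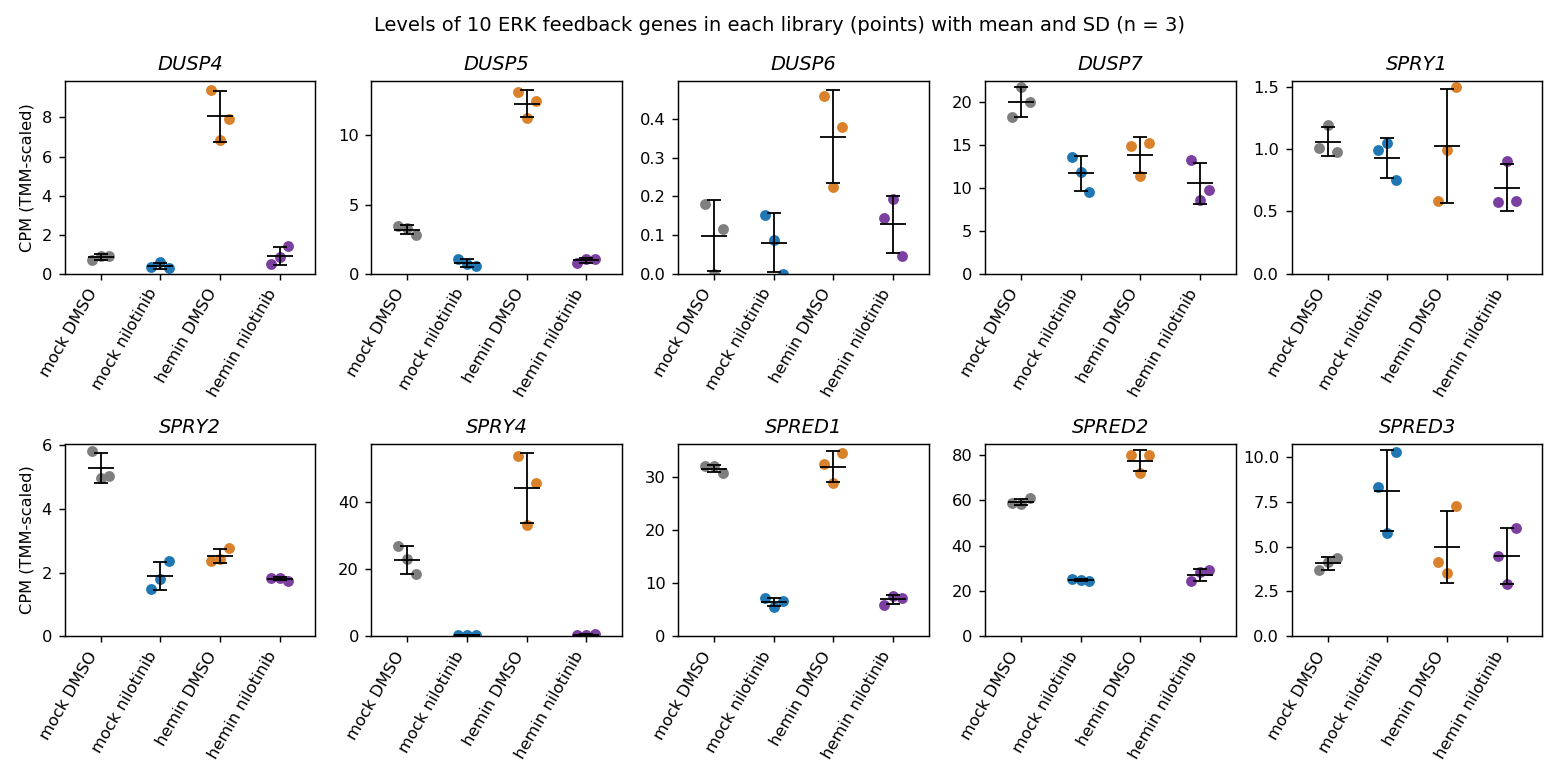
Level of each of the 10 genes (vertical axis, TMM-scaled CPM, starting at 0, with its own scale per gene) in the 4 groups. Points are libraries, the wide line is the mean and the bars are the SD (n = 3). SPRY4 stood near 0 in the 6 nilotinib libraries, DUSP4 and DUSP5 stood out in hemin DMSO, and SPRED3 was highest in mock nilotinib.

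Per length, SPRED2 was the most abundant member in all 4 groups, at 11.5 ± 0.25 RPKM (CPM per kilobase of gene length, mean ± SD, n = 3) in mock DMSO. It was followed there by SPRED1 at 3.82 ± 0.082, DUSP7 at 3.54 ± 0.31 and SPRY4 at 3.48 ± 0.64 RPKM, and these neighbours overlapped between libraries. SPRY2 (1.74 ± 0.16), DUSP5 (1.22 ± 0.13), SPRED3 (0.693 ± 0.060), SPRY1 (0.267 ± 0.029), DUSP4 (0.117 ± 0.019) and DUSP6 (0.0212 ± 0.020 RPKM) came next, each without overlap with the one before it. In mock nilotinib the order changed to SPRED2 (4.85 ± 0.090), DUSP7 (2.07 ± 0.36), SPRED3 (1.38 ± 0.38) and SPRED1 (0.782 ± 0.098 RPKM), and SPRY4 dropped to the ninth place at 0.0477 ± 0.0029 RPKM. DUSP7 and SPRED3 overlapped in this order, as did DUSP4 (0.0552 ± 0.022) and SPRY4. Under hemin without nilotinib, SPRY4 took the second place at 6.75 ± 1.6 RPKM and DUSP5 the third at 4.71 ± 0.38 RPKM, above SPRED1 (3.86 ± 0.35) and DUSP7 (2.45 ± 0.38), with no overlap among these 4. With hemin and nilotinib together, SPRED2 (5.27 ± 0.50) and DUSP7 (1.86 ± 0.43) led again, and SPRY4 was ninth at 0.0739 ± 0.018 RPKM, overlapping DUSP4 (0.127 ± 0.063).

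Nilotinib without hemin was the first comparison. It lowered 7 members and raised SPRED3, and only SPRY1 missed the threshold among the 9 members that could be tested. The test was edgeR's quasi-likelihood test fitted over 20821 genes, with a Benjamini-Hochberg adjusted p under 0.05 as the threshold, and over all these genes 21.8% were lower and 20.7% higher in this comparison. The median log2 fold change was -1.25 over the 9 members and 0.0039 over all genes tested. The 3 libraries of each group did not overlap for 8 of the 9 members, against 61.0% of all genes.

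SPRY4, a Sprouty protein that restrains growth factor signalling to RAS, changed most. It had 27.0, 23.0 and 18.5 CPM in the mock DMSO libraries and 0.330, 0.292 and 0.317 CPM in mock nilotinib, which is 964 to 1500 counts against 10 to 13. Each nilotinib library was far below each DMSO library, and the log2 fold change was -6.17 ± 0.27 (SE), or 72.1-fold lower (adjusted p = 2.26e-10, edgeR). SPRY4 (ENSG00000187678) lies at 142310427 to 142326455 on the minus strand of chromosome 5 (GRCh38), and no other annotated gene overlapped its exons. SPRY2, its relative with the same function, had 5.83, 4.98 and 5.04 CPM in mock DMSO and 1.496, 1.81 and 2.36 CPM in mock nilotinib. It fell by 1.48 ± 0.23 on the log2 scale (adjusted p = 8.19e-05, edgeR), a much smaller change than that of SPRY4. The third Sprouty gene, SPRY1, stayed between 0.7496 and 1.19 CPM in these 6 libraries, with overlapping groups and a log2 fold change of -0.19 ± 0.36 (adjusted p = 0.705).

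Among the SPRED genes, which hold back RAS activation of RAF, 2 fell and 1 rose. SPRED1 had 32.0, 32.0 and 30.8 CPM in mock DMSO and 7.20, 5.60 and 6.57 CPM in mock nilotinib. That is a log2 fold change of -2.29 ± 0.15 (adjusted p = 1.16e-08, edgeR), with a narrow spread in both groups. SPRED2 had 58.8, 58.5 and 60.8 CPM in mock DMSO and 25.4, 25.0 and 24.5 CPM in mock nilotinib, a log2 fold change of -1.25 ± 0.12 (adjusted p = 4.14e-07). SPRED3 went the other way, from 3.69, 4.13 and 4.38 CPM to 8.32, 5.78 and 10.2 CPM. Its groups did not overlap, although its nilotinib libraries were spread widely, and the log2 fold change was 0.996 ± 0.30 (adjusted p = 0.0141). The call on SPRED3 was lost without mock DMSO replicate 1 (0.89, adjusted p = 0.0625) and without mock nilotinib replicate 3 (0.77, adjusted p = 0.0801).

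All 3 phosphatases that could be tested were lower. DUSP5, a nuclear phosphatase that acts on ERK, had 3.44, 3.29 and 2.81 CPM in mock DMSO and 1.09, 0.729 and 0.548 CPM in mock nilotinib, a log2 fold change of -1.996 ± 0.26 (adjusted p = 1.56e-05, edgeR). DUSP7, a cytoplasmic ERK phosphatase, had 18.2, 21.8 and 20.03 CPM against 13.6, 11.9 and 9.54 CPM, a log2 fold change of -0.77 ± 0.19 (adjusted p = 0.00396). Neither gene had overlapping groups. DUSP4, a nuclear phosphatase of ERK and other MAP kinases on the minus strand of chromosome 8, had few reads, with 38 to 48 counts (0.684, 0.930 and 0.923 CPM) in mock DMSO and 10 to 20 counts (0.330, 0.583 and 0.288 CPM) in mock nilotinib. Its fold change of -1.07 ± 0.39 on the log2 scale passed narrowly (adjusted p = 0.0338), and the call was lost without mock DMSO replicate 2 (-1.01) or 3 (-1.03) and without mock nilotinib replicate 1 (-0.95) or 3 (-0.92), at adjusted p of 0.0794 to 0.109. It was also lost with upper-quartile factors (-0.96, adjusted p = 0.0631) and in limma-trend on log2(FPKM + 1) (-0.081, adjusted p = 0.330) and log2(FPKM + 0.1) (-0.48, adjusted p = 0.0997). At means of 0.117 and 0.0552 per kilobase in mock DMSO and mock nilotinib, DUSP4 was far below the 1 added, which shrinks its change.

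DUSP6, a cytoplasmic phosphatase specific for ERK, was barely detected in these K562 libraries. It had 10, 0 and 6 counts in mock DMSO, 6, 3 and 0 in mock nilotinib, 15, 7 and 15 in hemin DMSO and 5, 7 and 2 in hemin nilotinib, and it did not pass the filter on low counts. In CPM the hemin DMSO libraries (0.223 to 0.460) were above all others (0 to 0.192), a difference that rests on 7 to 15 counts. In edgeR's fit with all genes of at least 1 count kept, DUSP6 passed in no comparison. Hemin without nilotinib gave a log2 fold change of 1.68 ± 0.71 (adjusted p = 0.0562), and nilotinib with hemin -1.44 ± 0.72 (adjusted p = 0.108). An antisense gene, AC024909.2, covers 40.5% of the exon length of DUSP6. Whether counting used the strand is not given in the sources used here, so these few reads cannot be assigned between the 2 genes.

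Nilotinib was then compared with DMSO under hemin. The test called 5 members (DUSP4, DUSP5, SPRY4, SPRED1 and SPRED2) lower and none higher, against 31.8% of all genes lower and 32.4% higher. The median log2 fold change was -1.51 over the 9 tested members and 0.022 over all genes. Groups did not overlap for 6 of the 9 members, a share near the 63.5% of all genes.

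SPRY4 again changed most. It had 54.0, 33.2 and 45.8 CPM in hemin DMSO and 0.345, 0.549 and 0.561 CPM in hemin nilotinib, a log2 fold change of -6.49 ± 0.26 or 90.1-fold lower (adjusted p = 3.23e-11, edgeR). DUSP5 had 13.2, 11.2 and 12.5 CPM against 0.747, 1.10 and 1.08 CPM, a log2 fold change of -3.65 ± 0.27 (adjusted p = 1.06e-08). The nilotinib libraries of both genes stayed under 1.1 CPM, although the hemin DMSO libraries stood higher than mock DMSO. For DUSP4 the values were 9.41, 6.83 and 7.94 CPM in hemin DMSO and 0.489, 0.878 and 1.40 CPM in hemin nilotinib, a log2 fold change of -3.11 ± 0.35 (adjusted p = 1.13e-06). With 214 to 313 counts in hemin DMSO, this call held without any single library, with values from -3.54 to -2.80.

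SPRED1 and SPRED2 also fell under hemin. SPRED1 had 32.4, 28.8 and 34.5 CPM in hemin DMSO and 5.98, 7.60 and 7.27 CPM in hemin nilotinib (log2 fold change -2.20 ± 0.15, adjusted p = 7.17e-09, edgeR). SPRED2 had 80.1, 72.0 and 80.0 CPM against 24.2, 28.2 and 29.1 CPM (-1.51 ± 0.12, adjusted p = 2.23e-08). Both sets of libraries were well separated. The other 4 members did not pass. SPRY2 had 2.36, 2.42 and 2.76 CPM in hemin DMSO and 1.84, 1.84 and 1.75 CPM in hemin nilotinib, without overlap, and its log2 fold change of -0.48 ± 0.24 had an adjusted p of 0.0865. DUSP7 had 14.9, 11.4 and 15.2 CPM against 13.3, 8.62 and 9.72 CPM, with overlap and a log2 fold change of -0.40 ± 0.19 (adjusted p = 0.0835). DESeq2 put both genes past the threshold, at -0.52 for SPRY2 and -0.44 for DUSP7, and DUSP7 also passed without hemin DMSO replicate 2 (-0.52) or hemin nilotinib replicate 1 (-0.58). SPRY1 ranged from 0.575 to 1.496 CPM over these 6 libraries (-0.58 ± 0.37, adjusted p = 0.179). SPRED3 had 4.14, 3.54 and 7.28 CPM in hemin DMSO and 4.46, 2.91 and 6.01 CPM in hemin nilotinib, with full overlap (-0.16 ± 0.30, adjusted p = 0.653).

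**Figure D2:**
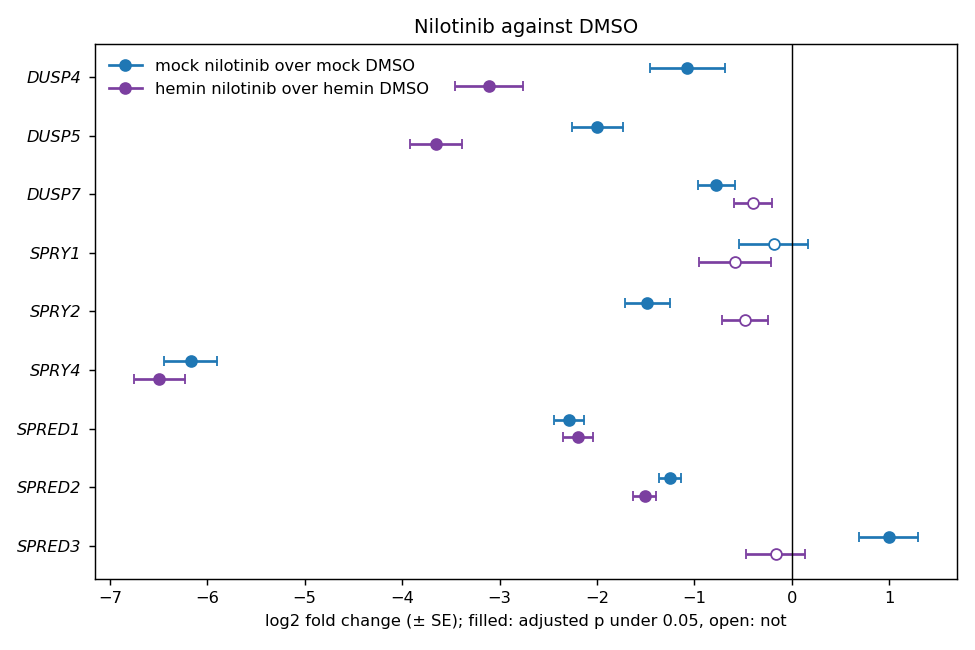
Log2 fold change of nilotinib over DMSO (horizontal axis, with the SE as bars) for the 9 tested members, without hemin (blue) and with hemin (purple). Filled points passed the adjusted p threshold of 0.05. SPRY4 lay at -6.17 and -6.49, DUSP4 and DUSP5 moved further left with hemin, and SPRED3 lay at 0.996 without hemin and -0.16 with it.

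Hemin was next compared with mock in the absence of nilotinib. It raised 4 members (DUSP4, DUSP5, SPRY4 and SPRED2) and lowered 2 (SPRY2 and DUSP7), against 25.7% of all genes higher and 27.8% lower. The nuclear phosphatases rose most. DUSP4 went from 0.684, 0.930 and 0.923 CPM in mock DMSO to 9.41, 6.83 and 7.94 CPM in hemin DMSO, 9.53-fold higher on average (log2 fold change 3.25 ± 0.35, adjusted p = 1.45e-06, edgeR). DUSP5 rose 3.87-fold, from 2.81 to 3.44 CPM to 11.2 to 13.2 CPM (log2 fold change 1.95 ± 0.24, adjusted p = 5.78e-06). SPRY4 rose by 0.96 ± 0.19 on the log2 scale (adjusted p = 0.000539), with its lowest hemin library at 33.2 CPM and its highest mock library at 27.0 CPM. SPRED2 rose by 0.38 ± 0.11 (adjusted p = 0.0103), and this call was lost without mock DMSO replicate 1 (0.31) or 2 (0.36), without composition factors (0.14, adjusted p = 0.338) and with all genes of at least 1 count kept (0.31, adjusted p = 0.146).

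SPRY2 moved against SPRY4, since its libraries went from 4.98 to 5.83 CPM in mock DMSO to 2.36 to 2.76 CPM in hemin DMSO (log2 fold change -1.07 ± 0.23, adjusted p = 0.000933, edgeR). DUSP7 fell by 0.53 ± 0.19 on the log2 scale (adjusted p = 0.0281), and the call was lost without mock DMSO replicate 2 (-0.48) or hemin DMSO replicate 2 (-0.40). SPRED1 had overlapping groups and a log2 fold change of 0.016 ± 0.15 (adjusted p = 0.936). SPRED3 (0.30 ± 0.30) and SPRY1 (-0.040 ± 0.36) also overlapped and did not pass. The median over the 9 members was 0.30, against -0.047 over all genes. This comparison uses the same mock DMSO libraries as that of nilotinib without hemin, and the same hemin DMSO libraries as that with hemin, so the results are not independent of each other.

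**Figure D3:**
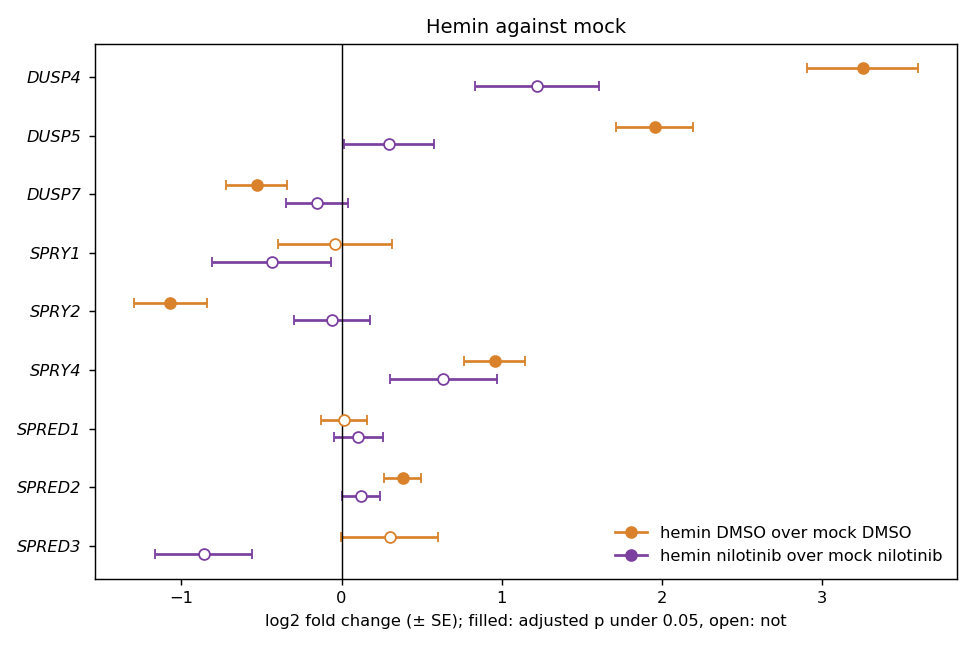
Log2 fold change of hemin over mock (horizontal axis, with the SE as bars) for the 9 tested members, in DMSO (orange) and in nilotinib (purple). Filled points passed the adjusted p threshold of 0.05. DUSP4 (3.25) and DUSP5 (1.95) led the rise in DMSO, and no member was past the threshold in nilotinib.

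In cells given nilotinib, none of the 9 members moved with hemin past the threshold of edgeR's test, against 3.52% of all genes higher and 2.28% lower, and 2 had an unadjusted p under 0.05. The 2 were DUSP4, with 0.330, 0.583 and 0.288 CPM in mock nilotinib and 0.489, 0.878 and 1.40 CPM in hemin nilotinib (log2 fold change 1.22 ± 0.39, adjusted p = 0.0756), and SPRED3, with 8.32, 5.78 and 10.2 CPM against 4.46, 2.91 and 6.01 CPM (-0.86 ± 0.30, adjusted p = 0.107). Both genes overlapped between the groups. DESeq2 called both. In this pair of groups the same-numbered replicates deviated together, and with the replicate number as a block in all 12 libraries SPRED3 was lower by the test (-0.88, adjusted p = 0.0259), being lower in hemin nilotinib in each of the 3 pairs, while DUSP4 was not called. That block called 1587 genes in this comparison, against 1208 without it. SPRY4, at 0.292 to 0.330 CPM before and 0.345 to 0.561 CPM after hemin, had groups that did not overlap but a log2 fold change of only 0.64 ± 0.34 (adjusted p = 0.291). The remaining 6 members had log2 fold changes from -0.43 (SPRY1) to 0.30 (DUSP5).

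The interaction asks whether nilotinib moved a gene by a different amount with hemin than without it. Here too, hemin cannot be told apart from more time in culture and longer exposure to nilotinib. DUSP4 and DUSP5 had negative interactions and SPRY2 a positive one, against 13.0% of all genes with a lower and 17.1% with a higher value. For DUSP4 the fold change of nilotinib was -3.11 with hemin and -1.07 without, a difference of -2.03 ± 0.52 (adjusted p = 0.00800, edgeR). For DUSP5 the difference was -1.66 ± 0.37 (adjusted p = 0.00327). In both genes the DMSO libraries were higher with hemin, while the nilotinib means were 0.789 and 0.974 CPM for DUSP5 and 0.400 and 0.923 CPM for DUSP4, the latter a 2.33-fold difference that DESeq2 called. SPRY2 had a difference of 1.01 ± 0.33 (adjusted p = 0.0295), its DMSO libraries being lower with hemin, and this call was lost without any of 5 single libraries, mock DMSO replicate 1 or 2, hemin DMSO replicate 1 and mock nilotinib replicate 1 or 2, at 0.88 to 1.06 and adjusted p of 0.0511 to 0.0679. The SPRY2 call was also lost in edgeR with upper-quartile factors (0.89, adjusted p = 0.0550) and with all genes of at least 1 count kept (1.08, adjusted p = 0.0669). SPRED3 lay just outside the threshold at -1.16 ± 0.43 (adjusted p = 0.0509), and it passed under DESeq2, RLE or upper-quartile factors, with all genes of at least 1 count, with the replicate block and without any of 4 single libraries, at -1.39 to -1.09. For SPRY4 (-0.32 ± 0.40), SPRED1 (0.090 ± 0.21), SPRED2 (-0.26 ± 0.16), DUSP7 (0.38 ± 0.27) and SPRY1 (-0.40 ± 0.51) the interaction did not pass, except that SPRY4 passed in limma-trend on log2(FPKM + 1) (-0.77, adjusted p = 0.0184). At means of 0.0477 and 0.0739 RPKM in mock and hemin nilotinib, SPRY4 was far below the 1 added there, which flattens its nilotinib libraries.

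The members were set beside 4 lists of genes of the same pathway. The first list held 11 other targets of ERK, of which 10 could be tested. Without hemin, nilotinib lowered 8 of them and raised none, beside 21.8% lower and 20.7% higher over all genes. Their median log2 fold change was -1.76. The PEA3 transcription factors ETV4 (-7.15 ± 0.28) and ETV5 (-4.51 ± 0.31), the immediate-early factor EGR1 (-3.30 ± 0.31) and the growth regulator MYC (-2.18 ± 0.13) fell most, all in edgeR's test. Under hemin, 9 fell and none rose, with a median of -3.49, beside 31.8% lower and 32.4% higher over all genes. ETV4 (-6.94 ± 0.28), the immediate-early factor FOS (-5.38 ± 0.47) and ETV5 (-4.34 ± 0.29) led there, and the receptor gene EPHA2 fell from a mean of 1.28 CPM to 0.0769 CPM, a level of few counts. ETV4, like SPRY4, thus had its nilotinib libraries under 1 CPM in both states.

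Phosphatases and Sprouty genes outside the group did not all move with it. Of 6 tested genes of the 7 listed, 3 fell and 1 rose without hemin (median -0.38), beside 21.8% lower and 20.7% higher over all genes. DUSP9 (-1.98 ± 0.26), DUSP10 (-1.44 ± 0.22) and DUSP16 (-0.56 ± 0.16), which act on ERK or on the stress kinases p38 and JNK, were lower. DUSP1, an immediate-early phosphatase that acts mainly on p38 and JNK, rose, from 13.8 ± 1.2 CPM to 32.6 ± 2.1 CPM (1.24 ± 0.13, adjusted p = 1.38e-06, edgeR). With hemin its direction turned, since it fell from 222 ± 27 CPM in hemin DMSO to 57.7 ± 5.3 CPM in hemin nilotinib (-1.94 ± 0.13), and the interaction was -3.18 ± 0.18 (adjusted p = 6.76e-08). With hemin, 5 of the 6 genes fell, led by DUSP8 (-3.55 ± 0.37), DUSP10 (-2.91 ± 0.22) and DUSP9 (-2.67 ± 0.27), with a list median of -2.31. Over all genes 31.8% were lower and 32.4% higher there.

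The kinases and adaptors of the cascade itself formed the third list. Of 19 tested, 6 fell and none rose without hemin (median -0.095), and 5 fell and 6 rose with hemin (median -0.16), beside 21.8% lower and 20.7% higher, and 31.8% lower and 32.4% higher, over all genes. The count without hemin was 3 without mock DMSO replicate 3 or without mock nilotinib replicate 2, and 10 (7 lower, 3 higher) in the 6 libraries alone. GAB2, the adaptor between BCR::ABL1 and RAS, had the largest change of the list in both comparisons, falling from a mean of 238 to 48.8 CPM without hemin (-2.29 ± 0.19) and from 158 to 43.4 CPM with it (-1.87 ± 0.19). MAP2K1, which encodes MEK, fell by 0.59 ± 0.13 and by 1.19 ± 0.13 on the log2 scale, and RPS6KA3, an ERK-activated kinase, by 0.58 ± 0.12 and by 0.78 ± 0.12. Without hemin the scaffold KSR1 was also lower (-0.55 ± 0.19).

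Among 8 other restraints and partners, 4 fell and 1 rose in each of the 2 nilotinib comparisons, with medians of -0.48 and -0.32. Over all genes, 21.8% were lower and 20.7% higher without hemin, and 31.8% and 32.4% with it, and the list's count without hemin was 3 in place of 5 without mock nilotinib replicate 2 or 3. ERRFI1, a feedback inhibitor of the EGF receptor family, fell by 1.12 ± 0.20 and by 2.66 ± 0.20 on the log2 scale, and CBL, a ubiquitin ligase that binds Sprouty proteins, by 0.86 ± 0.14 and by 1.59 ± 0.14. NF1, the partner of the SPRED proteins, fell by 0.56 ± 0.12 without hemin and by 0.29 ± 0.12 with it (adjusted p = 0.0444, edgeR). RASA1, a RAS GTPase-activating protein, rose in both (0.48 ± 0.13 and 0.81 ± 0.13). TESK1, a kinase bound by Sprouty, fell by 0.84 ± 0.15 with hemin.

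Hemin alone raised 6 of the 10 other ERK targets and lowered 1, led by FOS (5.55 ± 0.47), IER3 (2.34 ± 0.18) and FOSL1 (1.997 ± 0.23), while EPHA2 rose from a mean of 0.0977 CPM to 1.28 CPM. It raised 4 of the 6 other phosphatase and Sprouty genes and lowered none, with DUSP1 at 4.003 ± 0.14, DUSP8 at 3.41 ± 0.36, DUSP10 at 1.88 ± 0.21 and DUSP16 at 1.08 ± 0.16. Over all genes 25.7% were higher and 27.8% lower in this comparison. In cells given nilotinib, 4 of the 10 targets rose with hemin and none fell, with FOSL1 (1.64 ± 0.23), ETV5 (1.34 ± 0.31), IER3 (0.80 ± 0.19) and MYC (0.46 ± 0.13), beside 3.52% of all genes higher. This count was 1 without mock nilotinib replicate 2 or 3 or hemin nilotinib replicate 2, and 2 without hemin nilotinib replicate 3. There DUSP1 rose (0.82 ± 0.13) and DUSP9 fell (-1.25 ± 0.27), while none of the 19 components and none of the 8 restraints passed edgeR's test, with 1 and 0 genes of these lists at an unadjusted p under 0.05.

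**Figure D4:**
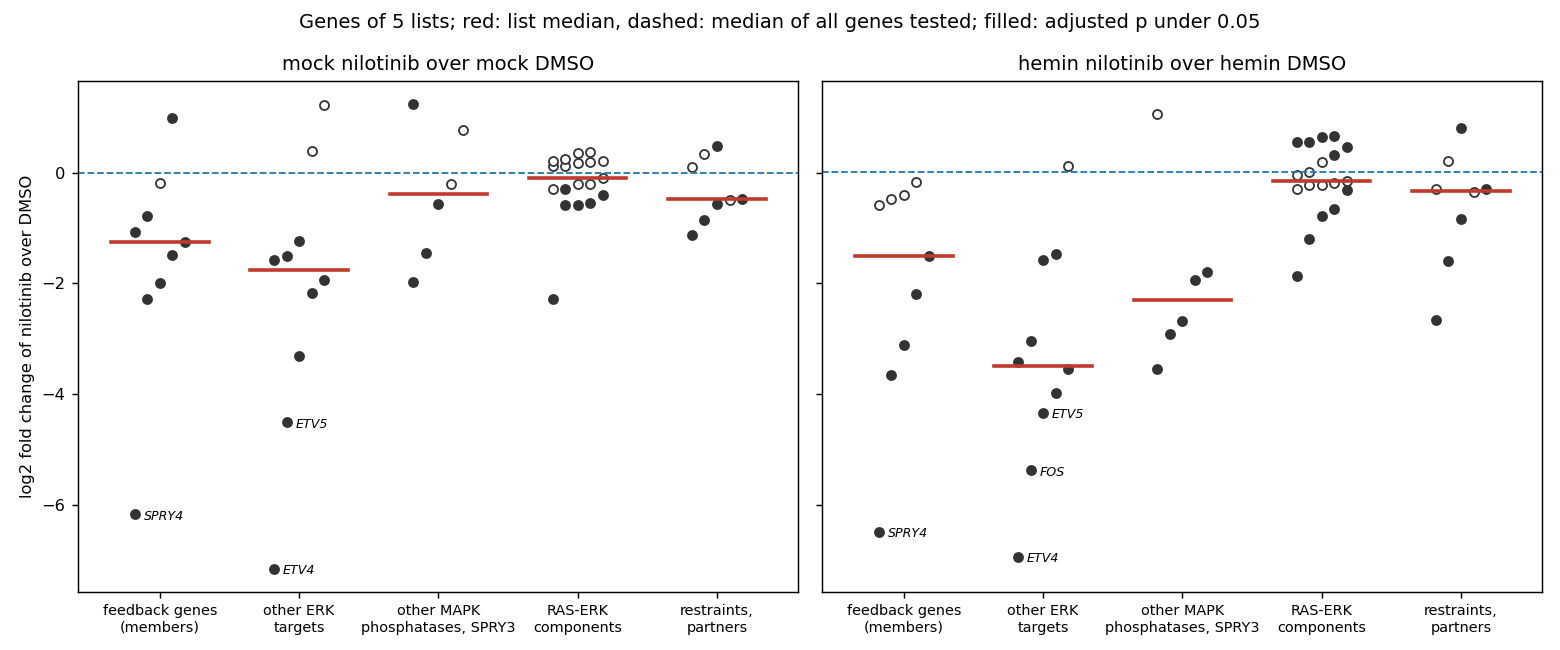
Log2 fold change of nilotinib over DMSO (vertical axis) for the tested genes of 5 lists, without hemin (left) and with hemin (right). Each point is a gene, filled where it passed the adjusted p threshold of 0.05, the red line is the median of the list and the dashed line the median of all genes tested. The medians of the feedback genes (-1.25 and -1.51) lay between those of the other ERK targets (-1.76 and -3.49) and the RAS-ERK components (-0.095 and -0.16).

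The pattern over the 12 libraries was then compared with all 12495 genes that had a mean of at least 100 counts. DUSP6 was meant as the reference, but with 0 to 15 counts its correlations (at most 0.886) rest on sparse counts and were not read. SPRY4 was taken in its place after its values were seen. The non-members most like SPRY4 by Pearson's r of log2 CPM were the glucose transporter gene SLC2A3 (0.996), the SRC family kinase gene YES1 (0.993), the receptor gene GPR3 (0.993), the cytokine signalling inhibitor gene SOCS3 (0.991) and the zinc transporter gene SLC39A14 (0.990). SLC2A3 had a mean of 130 ± 24 CPM in mock DMSO, 2.50 ± 0.55 in mock nilotinib, 255 ± 24 in hemin DMSO and 3.84 ± 1.2 in hemin nilotinib (SD, n = 3). Of the members, SPRED2 (0.994) and SPRED1 (0.992) were as close to SPRY4 as these genes. The others had many non-members closer to SPRY4 than themselves. DUSP5 (0.934) stood at rank 529 against the non-members and DUSP4 (0.733) at rank 2668. SPRY2 (0.698), DUSP7 (0.655) and SPRY1 (0.376) stood at ranks 2998, 3298 and 4943. SPRED3 was the only member with a negative value (-0.398). The libraries fall into clusters by nilotinib, so these values mainly describe that split, and the points share their 4 conditions.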

How the data were processed

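RNA was extracted from 12 cultures of K562 cells and sequenced as 150-base paired-end reads. The authors deposited raw counts of reads per gene and library, made by their sequencing service. A second deposited table held FPKM for the same genes and libraries, which are counts per kilobase divided by 1 constant per library, and a table of group means that was not used here. The submitters' processing notes name the build GRCh38.p12, DESeq and DESeq2 without versions, and the aligner and counter are not given in the sources used here.

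The filterByExpr filter (at least 10 counts, total of at least 15) left 20821 genes and 9 of the 10 members. These were scaled by TMM and fitted over all 12 libraries with a mean per group in edgeR 4.0.16 (R 4.3.3) by quasi-likelihood, with two-sided p adjusted by Benjamini-Hochberg over all genes tested. The SE is the log2 fold change divided by the square root of F. For 3 against 3 libraries an exact permutation test cannot go below p = 0.1, so none was run. p-values rest on 3 cultures per group, with a biological coefficient of variation of 0.198. The total count of 33457078 to 50506990 per library limits precision for genes with few counts.

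All 10 members are named. Genes of 4 pathway lists are named where they are among the 4 largest changes past the threshold in a comparison, except that the result of 1 list gene is not reported here, though counts and medians include it. The members and lists were chosen with earlier results of these data known. Alternatives were DESeq2 1.42.0, other scaling factors, other filters, limma-trend (limma 3.58.1) on log2(FPKM + 1) and log2(FPKM + 0.1), 6 libraries alone, a block for the replicate number, and leaving out single libraries. Deviations of same-numbered libraries correlated above 0.1 in all 3 pairs for mock nilotinib with hemin nilotinib and for no other groups (0.263, 0.199 and 0.254), so the numbers, which come from the labels, were taken to pair only these. Positions and overlaps came from GENCODE 29, whose start and end matched those of 58724 of the 58735 genes, and none of the 150-base words of the members' transcripts occurred in another gene. Figures were drawn with Python 3.11.15 and matplotlib 3.10.9. The procedures were tested on simulated data.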

Additional observations from a re-analysis of the deposited data

Results flagged for a closer look

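The effect of nilotinib differed between cells with and without hemin for 3 of the 9 tested members, by edgeR's test of the interaction. The same test called 6271 of all 20821 genes, 13.0% with a lower and 17.1% with a higher value. The count of members is thus near the share over all genes. For DUSP4 the difference between the log2 fold changes was -2.03 ± 0.52 (SE, adjusted p = 0.00800), and for DUSP5 it was -1.66 ± 0.37 (adjusted p = 0.00327). SPRY2 differed by 1.01 ± 0.33 in the opposite direction (adjusted p = 0.0295). The SPRY2 call was lost with upper-quartile factors and with all genes of at least 1 count kept, and it held in 7 of 12 fits without single libraries. Hemin cannot be told apart here from more time in culture and longer exposure to nilotinib, and no explanation was tested.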

How the results depend on the processing

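Most values for the 9 tested members kept their direction and their side of the threshold, in 709 of 774 alternatives, while 24 lost a call, 22 gained one and 19 changed sign, all 19 from values that had not been called. Under hemin with nilotinib, where edgeR called no member, DESeq2 called 2, keeping all genes with at least 1 count called 2, and the replicate block called 1, as did the block in the 6 libraries alone, an alternative chosen after seeing the data. Leaving out each library gave 0 to 1 there (1 without hemin nilotinib replicate 1, DUSP4 at 1.52), 6 to 8 for nilotinib without hemin, 5 to 6 with hemin, 4 to 6 for hemin without nilotinib and 2 to 4 for the interaction. The block changed no call on a member apart from SPRED3 for hemin with nilotinib (-0.88) and the interaction (-1.10, adjusted p = 0.0136). For nilotinib with hemin, SPRED3 changed sign without composition factors (0.0033) and without hemin DMSO replicate 3 (0.21) or hemin nilotinib replicate 2 (0.064), in a range of -0.43 to 0.21 without single libraries. For hemin without nilotinib, SPRY1 did so under DESeq2 (0.0017), RLE (1.2e-05) and upper-quartile factors (0.086), with 10 counts in every library (0.00043), in 6 libraries alone (0.0024), and without mock DMSO replicate 2 (0.035) or hemin DMSO replicate 1 (0.25), in a range of -0.41 to 0.25. SPRED1 did so there without composition factors (-0.22), with all genes (-0.058), and without mock DMSO replicate 1 (-0.044) or 3 (-0.048) or hemin DMSO replicate 3 (-0.030), in a range of -0.048 to 0.088, and the last of these also turned SPRED3 (-0.068 to 0.50). For hemin with nilotinib, SPRY2 turned without mock nilotinib replicate 3 (-0.21 to 0.11) and SPRED1 without mock nilotinib replicate 2 (-0.0099 to 0.20), and SPRED1 turned in the interaction under upper-quartile factors (-0.029). The cause was not tested. Without composition factors the median log2 fold change of all genes moved from -0.047 to -0.29 for hemin without nilotinib, from 0.022 to 0.20 for nilotinib with hemin and from 0.063 to 0.27 for the interaction. The split of calls then went from 5360 higher and 5796 lower to 3881 and 7578 for hemin without nilotinib, from 733 and 475 to 527 and 545 for hemin with nilotinib, and from 3558 and 2713 to 4799 and 1752 for the interaction (2914 and 3380 under upper-quartile factors). The 1208 genes called for hemin with nilotinib became 1974 in DESeq2, 1987 with all genes, 741 and 694 on the FPKM, 183 in 6 libraries alone, and 213 to 2793 without single libraries. With the replicate block there were 1587, and 1600 with the block in the 6 libraries alone. Few reads limit DUSP4, DUSP6, SPRY1 and, under nilotinib, SPRY4.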
